A study of Ovis aries with 48 samples.

Results

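The effect of prenatal bisphenol A (BPA) on the small non-coding RNAs of visceral fat was examined in 8 female sheep whose age at sampling and breed are not given in the labels. The visceral BPA group held 4 sheep (910, 918, 977 and 984) whose mothers were injected subcutaneously every day with BPA in corn oil, 0.5 mg per kg per day, from gestational day 30 to 90. The visceral control group held 4 sheep (902, 908, 924 and 928) whose mothers received corn oil alone by the same route over the same days. These 8 libraries, 1 per sheep, were chosen by depot and treatment from the labels out of 48 libraries in the series. Subcutaneous fat of the same 8 sheep gave 8 more libraries that are used for comparison, and visceral fat of a separate cohort is quoted where a value bears on a result, with 4 sheep whose mothers received testosterone propionate in corn oil intramuscularly over the same gestational days and 4 control sheep. The labels put all animals under similar housing and a maintenance diet.

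BPA is an industrial monomer of plastics and resins that binds estrogen receptors and crosses the placenta. Visceral fat lies in the abdominal cavity, is covered by mesothelium and holds adipocytes, vessels and immune cells. MicroRNAs are short RNAs that guide Argonaute proteins to messenger RNAs and lower their output. Small nuclear RNAs (snRNAs) are the RNA parts of the spliceosome and related particles, small nucleolar RNAs (snoRNAs) guide chemical modification of ribosomal RNA and other RNAs and mostly lie in introns of host genes, and long non-coding RNAs (lncRNAs) are a mixed class. A kit for small RNA was used, so that reads of longer RNAs come from short pieces of them.

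The 8 visceral libraries held between 481522 and 1340280 reads in the 4 classes, and microRNAs made up 83.8% to 86.6% of these reads. Library numbers in the labels fell into an early set (up to 48) and a later set (from 81). The BPA group had 1 early and 3 later libraries, and the control group 3 early and 1 later, so that treatment and library set can be told apart only in part. Between the sets 55 of the 437 features tested were called, 43 of them higher in the later set and 49 of them snoRNAs. Values with a term for the set, or within each set, are therefore given beside many results below. Within a set 1 group always has a single library, which is assumed to vary like the others. Of the markers of the depot, MIR200A, MIR200B and MIR200C, microRNAs of epithelium and mesothelium, together made up 0.0212% to 0.0430% of microRNA reads in BPA and 0.0210% to 0.0720% in control visceral libraries. In subcutaneous libraries of the same sheep they made up 0.00290% to 0.0332%. Without subcutaneous BPA sheep 918 the other 7 subcutaneous libraries held 0.00290% to 0.0157%, below every visceral library. Protein-coding markers of adipocytes are not measured in these data.

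Prenatal BPA was followed in visceral fat by lower values of a neighbouring pair of snRNAs, LOC114117093 and LOC114117060. These were the 2 features called among 437 tested (0.458%, and 6.25% of 32 snRNAs, limma, Benjamini-Hochberg adjusted p under 0.05 within the RNA class). No microRNA, snoRNA or lncRNA was called by limma. At an unadjusted p under 0.05 there were 35 features (8.01%), 25 higher (5.72%) and 10 lower (2.29%) in BPA. Of these 4 were microRNAs, 11 snoRNAs, 10 snRNAs and 10 lncRNAs. The groups did not overlap in 12 features (2.75%), 7 with BPA above every control (1.6%) and 5 with BPA below every control (1.14%). The median log2 fold change over all features was 0.01. The count of calls was 2 with edgeR and 3 with DESeq2 on the recovered reads, 0 with the set term and 28 without BPA sheep 918, the only early BPA library. It was 10, all snRNAs and 8 of them higher in BPA, with CPM (reads scaled to a common total) of the class, and 1 without control sheep 908.

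**Figure D1:**
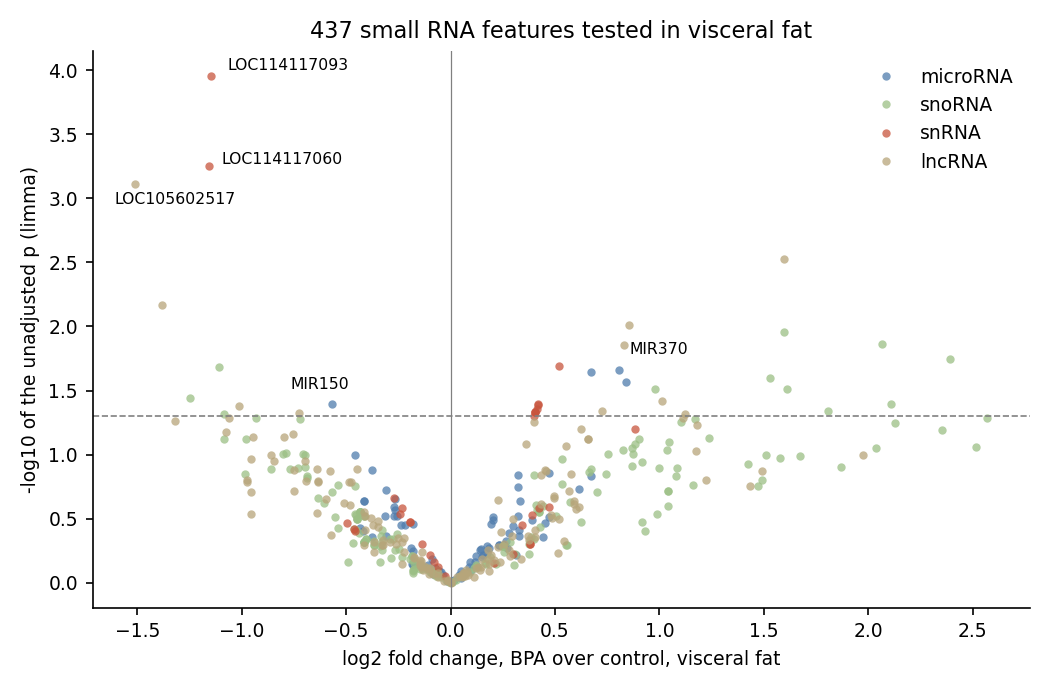
Each point is 1 of 437 features in visceral fat, with its log2 fold change (BPA over control) on the x axis and -log10 of the unadjusted limma p on the y axis, coloured by RNA class. The dashed line marks the 0.05 level of p, and the 2 called snRNAs LOC114117093 and LOC114117060 stand at the upper left at -1.15 and -1.16.

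LOC114117093 had 70.7, 107.1, 126.1 and 103.7 normalised reads in BPA visceral fat (sheep 910, 918, 977 and 984), against 168.8, 268.1, 200.6 and 267.6 in control visceral fat (sheep 902, 908, 924 and 928). Every BPA sheep lay below every control sheep. The means were 101.9 ± 23 in BPA and 226.3 ± 49.7 in control (SD, n = 4 each), a log2 fold change of -1.15 (SE 0.29, limma adjusted p = 0.003552). LOC114117060 had 81.01, 121.2, 151.0 and 126.2 normalised reads in BPA visceral fat, against 177.5, 337.7, 234.6 and 335.2 in control visceral fat. Again the groups did not overlap, and in both groups the sheep stood in nearly the same order as for LOC114117093. Its log2 fold change was -1.16 (SE 0.33, limma adjusted p = 0.009014).

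In the RefSeq annotation of the sheep assembly ARS-UI_Ramb_v3.0 the pair are each other's neighbours on chromosome 11, between TEX14, a gene of germ cell division, and RAD51C, a gene of DNA repair. The annotation gives them the biotype snRNA and no further name, so no particular splicing particle is assigned to them here. Their normalised reads correlated with r = 0.978 over 16 libraries of both depots, and the value of LOC114117060 was 1.05 to 1.55 times that of LOC114117093. If their sequences are near-identical, reads may have been divided between them by the counting, so the pair is best read as 1 measurement. In bulk tissue, fewer cells that hold an RNA and less of it per cell cannot be told apart.

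With a term for library set the log2 fold changes of the pair were -0.98 and -0.95 and no longer passed (limma adjusted p = 0.1454 for LOC114117093 and 0.207 for LOC114117060). Within the early set they were -1.18 and -1.29, and within the later set -0.79 and -0.61, lower in BPA each time. Each of these values rests on a single library in 1 group, so only its size is given. LOC114117060 also did not pass with adjustment over all 4 classes together (limma adjusted p = 0.1121) or without control sheep 908 (0.08098). LOC114117093 passed in both (limma adjusted p = 0.0485 and 0.04283). Scaled to reads of all 4 classes, the difference was larger, at -2.06 for LOC114117093 and -2.08 for LOC114117060. When snRNAs were rescaled without the pair, the log2 fold changes were -1.28 and -1.29, with limma adjusted p = 0.05604 for LOC114117093 and 0.08817 for LOC114117060.

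In subcutaneous fat of the same sheep the pair had higher means in BPA than in control. As a share of all snRNA reads, which does not depend on the scale of a depot, LOC114117093 made up 4.76%, 6.94%, 6.90% and 5.11% in BPA visceral fat, against 10.8%, 14.9%, 11.6% and 13.9% in control visceral fat. In subcutaneous fat it made up 7.47%, 9.82%, 6.05% and 12.2% in BPA sheep, against 4.85%, 4.52%, 7.46% and 7.25% in control sheep. Control visceral fat stood above the other 3 groups except for overlap with 1 subcutaneous BPA library (sheep 984). The log2 fold change of BPA in subcutaneous fat was 0.72 for LOC114117093 and 0.57 for LOC114117060 (limma adjusted p = 0.1069 and 0.2362).

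The effect of BPA in visceral fat minus that in subcutaneous fat was -1.87 for LOC114117093 (SE 0.34, limma adjusted p = 3.638e-06) and -1.73 for LOC114117060 (SE 0.38, limma adjusted p = 0.0001321). They were the 2 features called for this difference among 470 tested (0.426%). With the sheep as a replicate block and a term for library set, the same pair had differences of -1.96 and -1.79, with adjusted p = 0.0001833 for LOC114117093 and 0.001493 for LOC114117060. In visceral fat of the prenatal testosterone cohort, the log2 fold changes of treatment were -0.27 for LOC114117093 and -0.21 for LOC114117060 (limma adjusted p = 0.9504 for each).

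**Figure D2:**
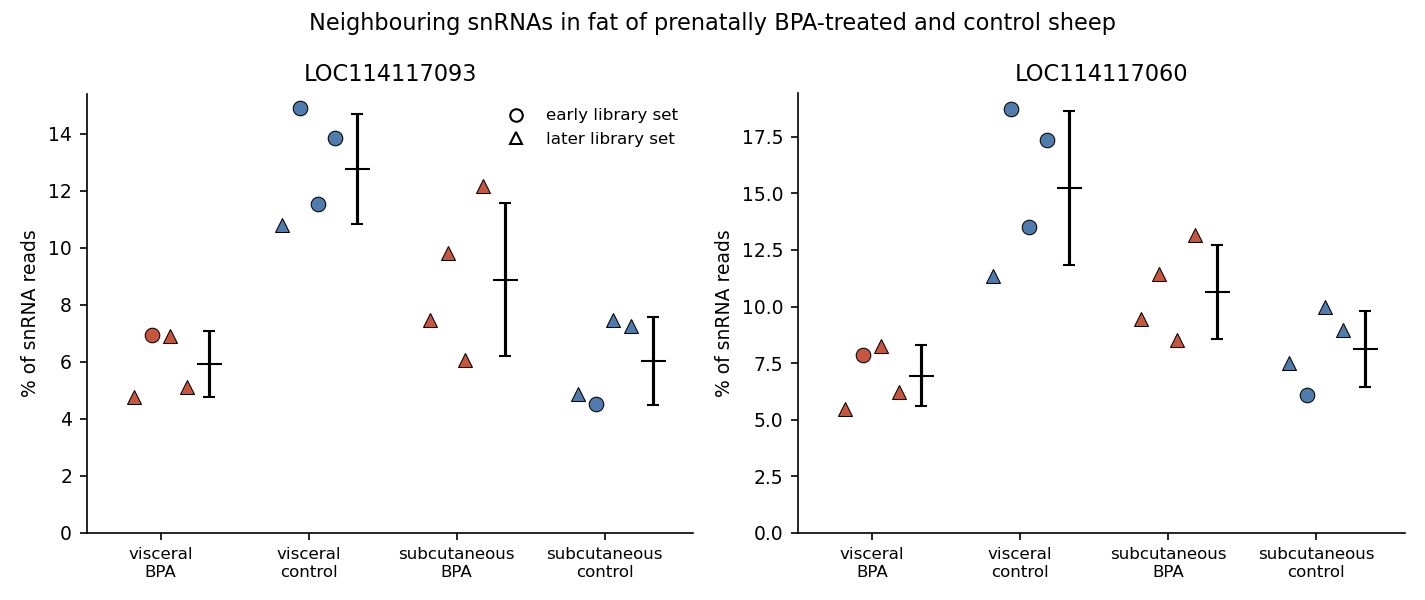
The share of snRNA reads (in percent, y axis) taken by LOC114117093 (left panel) and LOC114117060 (right panel) is plotted for each library by depot and treatment, with circles for the early and triangles for the later library set and bars for the mean and SD of 4 sheep. BPA visceral libraries hold 4.76% to 6.94% and control visceral libraries 10.8% to 14.9% for LOC114117093, while in subcutaneous fat BPA libraries hold 6.05% to 12.2% and control libraries 4.52% to 7.46%.

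The share of reads taken by the whole snRNA class was also lower in every BPA library, although it did not pass after adjustment. It made up 0.229%, 0.251%, 0.176% and 0.155% of all reads in BPA sheep 910, 918, 977 and 984, against 0.702%, 0.358%, 0.308% and 0.291% in control sheep 902, 908, 924 and 928. Every BPA library lay below every control library, and control sheep 902 stood far above the other controls. The difference of the means was -0.21 percentage points (exact permutation p = 0.02857, 2-sided, the smallest that 70 splits can give, adjusted p = 0.1714 over 12 shares). It was -0.07 points within the early set, -0.52 within the later set and -0.12 without control sheep 902.

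The pair made up part of this difference. LOC114117093 and LOC114117060 together made up 233.7, 370.6, 266.7 and 175.3 CPM of all reads in BPA visceral fat, against 1554.4, 1203.9, 772.2 and 907.5 in control visceral fat. All other snRNAs together made up 2055.9, 2134.5, 1492.2 and 1372.1 CPM in BPA, against 5466.1, 2375.1, 2308.7 and 2002.0 in control. Without the pair the groups overlapped, since BPA sheep 910 and 918 stood above control sheep 928.

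The other 30 snRNAs tested were not called on the deposited scale. The 32 snRNAs fell into 19 groups. An snRNA was joined to a group when its values lay within 10% of those of at least 1 member in every visceral library. Of these groups 5 had several members (18 snRNAs), so that many snRNA values are near-copies of each other. With each group counted once, 9 groups were higher and 10 lower in BPA, and the pair were the 2 that passed (limma adjusted p = 0.00015 for each). The pair still stood as 2 groups there, although it is best read as 1 measurement. Its log2 fold changes were unchanged at -1.15 and -1.16, with smaller SE of 0.25 and 0.26. The spread that limma pools over features had changed, so the smaller p is not taken as added support. LOC114110196, which neighbours WDR74, had 109.5, 91.8, 140.1 and 152.6 normalised reads in BPA, against 72.3, 76.9, 91.3 and 99.3 in control, a log2 fold change of 0.52 (SE 0.22, limma adjusted p = 0.1596). A group of 7 near-equal snRNAs, among them LOC114117116 and LOC114117117, had 0.42 for each of those named (adjusted p = 0.1596). LOC114110196 and these 7 were the 8 called as higher with CPM of the class. LOC114110196, LOC114117116 and LOC114117117 also passed within the later set and without BPA sheep 918, and over all alternatives the adjusted p ranged from 0.00196 to 0.9745 for LOC114110196 and from 0.004891 to 0.9745 for the other two. Scaled to reads of all classes, these values turned to -0.40 for LOC114110196 and -0.50 for each of LOC114117116 and LOC114117117, and 31 of 32 snRNAs were lower in BPA. The direction of these other snRNAs thus depended on what they were measured against.

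**Figure D3:**
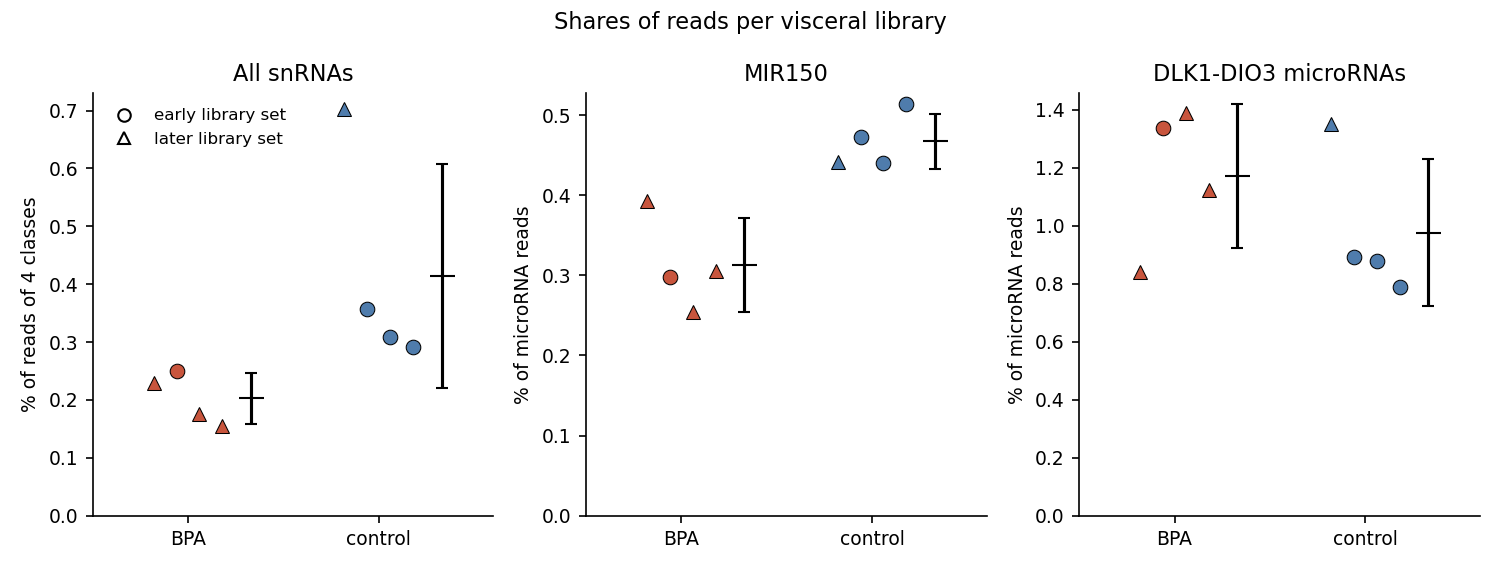
Shares of reads in each visceral library (in percent, y axis) are shown for all snRNAs, for MIR150 and for the DLK1-DIO3 microRNAs, with BPA left of control, circles for the early and triangles for the later library set, and bars for the mean and SD of 4 sheep. BPA lies below every control for snRNAs (0.155% to 0.251% against 0.291% to 0.702%) and for MIR150 (0.254% to 0.393% against 0.441% to 0.514%), while the groups overlap for the DLK1-DIO3 microRNAs.

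MicroRNAs of visceral fat were dominated by the same genes in both groups. The 8 most abundant, MIRLET7B, MIRLET7A, MIRLET7C, MIR99A, MIR125B, MIR26A, MIR143 and MIRLET7G, made up 75.3% of microRNA reads as a mean over the 8 libraries. Their log2 fold changes lay between -0.18 and 0.15 (limma adjusted p between 0.8402 and 0.988). MIRLET7B, a member of the let-7 family of differentiated cells, made up 34.1%, 22.3%, 18.03% and 20.4% of microRNA reads in BPA, against 28.0%, 25.6%, 25% and 22.7% in control. BPA sheep 910 held the highest share and the other BPA sheep the lowest shares, so that the groups overlapped. MIR143, which promotes adipocyte differentiation and is abundant in smooth muscle, ranged from 1.75% to 7.52% in BPA and from 2.49% to 4.31% in control.

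No microRNA of 76 tested was called by limma, edgeR or DESeq2, and 4 had an unadjusted limma p under 0.05 (5.26%). MIR370, MIR493 and MIR543 were the 3 with higher values in BPA, all of the DLK1-DIO3 cluster, and MIR150 was the 1 with lower values. MIR150 is abundant in mature lymphocytes. It made up 0.393%, 0.298%, 0.254% and 0.306% of microRNA reads in BPA visceral fat, against 0.441%, 0.473%, 0.441% and 0.514% in control visceral fat. Every BPA sheep lay below every control sheep on this scale (difference of the means -0.15 percentage points, exact permutation p = 0.02857, adjusted p = 0.1714). The difference was -0.18 points within the early set and -0.12 within the later set.

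On the deposited scale MIR150 overlapped, with 2818.9, 1339.1, 1148.0 and 1566.3 normalised reads in BPA against 2263.5, 2524.1, 2254.1 and 2531.0 in control. BPA sheep 910 was the highest of all 8 there. The log2 fold change was -0.57 (SE 0.25, limma adjusted p = 0.7664), and -0.63 with the set term. In subcutaneous fat of the same sheep it was -0.70, and in visceral fat of the prenatal testosterone cohort -0.96, neither of them called (limma adjusted p = 0.5115 and 0.4772). MIR150 was the 1 leukocyte marker in the table, and MIR142, MIR155 and MIR223 were not analysed here. The part of leukocyte content in other results was not tested.

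Among the next microRNAs by p, MIR148A and MIR30D, both described as promoting adipocyte differentiation, had higher means in BPA. MIR148A had 1299.8, 3301.6, 2773.8 and 3676.3 normalised reads in BPA, against 1577.6, 1856.8, 1437.3 and 2806.9 in control (log2 fold change 0.47, SE 0.30). MIR30D had a log2 fold change of 0.32 (SE 0.21). MIR10B, which lies in the HOXD gene cluster, had 705.8, 1331.6, 1138.6 and 1231.2 in BPA, against 932.0, 1763.7, 1643.9 and 1742.4 in control (log2 fold change -0.46, SE 0.26), and 0.10 within the later set. MIR25, of a cluster tied to cell proliferation, had a log2 fold change of -0.38 (SE 0.24). The limma adjusted p of these 4 was 0.8402, and for each the groups overlapped.

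The DLK1-DIO3 region is an imprinted domain whose maternal copy gives rise to one of the largest microRNA clusters of mammals, with a row of snoRNAs beside it. In sheep the callipyge muscle trait maps to it. Of 54 cluster microRNAs in the table, 27 passed the filter on low values. None was called. An unadjusted p under 0.05 with higher values in BPA was found in 3 of the 27. These were also the only 3 among all 76 microRNAs (3.95%), so that this percentage is no separate background. Log2 fold changes were positive in 21 and negative in 6 of the 27, beside 45 positive among all 76 microRNAs. The median of the 27 was 0.26, beside 0.09 over all 76 microRNAs, which include them.

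MIR370 had 134.3, 91.2, 105.6 and 107.96 normalised reads in BPA, against 85.4, 81.7, 52.8 and 39.3 in control. It was the 1 microRNA tested whose groups did not overlap (1.32%, below the 2.75% of all 437 features). The log2 fold change of MIR370 was 0.81 (SE 0.32, limma adjusted p = 0.6883). It was 0.57 with the set term, 0.71 within the early set and 0.43 within the later set. MIR493 had 267.1, 268.3, 241.6 and 161.0 in BPA, against 149.5, 127.1, 169.8 and 133.2 in control, a log2 fold change of 0.67 (SE 0.27, limma adjusted p = 0.6883). Only BPA sheep 984 and control sheep 924 overlapped, and the fold change was 0.73 with the set term. MIR543 had 165.6, 76.2, 126.7 and 139.2 in BPA, against 100.5, 88.5, 56.6 and 41.6 in control, a log2 fold change of 0.84 (SE 0.35, limma adjusted p = 0.6883), which was 0.43 with the set term, 0.36 within the early set and 0.50 within the later set. MIR127, the most abundant of the 4 and antisense to the imprinted gene RTL1, had 4163.4, 3722.2, 4438.6 and 4102.4 in BPA, against 5250.4, 3015.6, 2654.9 and 2733.2 in control. The BPA sheep lay above the 3 early controls and below the later control, sheep 902, and the log2 fold change of 0.32 (SE 0.23) was -0.31 within the later set.

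The cluster as a whole had positive medians in both sets. Within the early set 26 of 27 members were higher in BPA sheep 918 than in controls, with a median of 0.49. Within the later set 16 of 27 were higher in BPA than in control sheep 902, with a median of 0.16. In each set 1 side is a single library in which all members were measured together. Neither count is thus one of independent observations. The median without BPA sheep 918 was 0.11. As a share of microRNA reads, the cluster made up 0.842%, 1.34%, 1.39% and 1.12% in BPA, against 1.35%, 0.891%, 0.877% and 0.787% in control (exact permutation p = 0.3429). The difference was 0.48 percentage points within the early set and -0.23 within the later set. MIR127 alone made up 0.581% to 0.983% in BPA, against 1.024% in control sheep 902 and 0.519% to 0.565% in the other 3 controls. Without MIR127 the difference of the cluster share was 0.20 points within the early set and 0.0044 within the later set. In subcutaneous fat the cluster's median log2 fold change was -0.40 over the 23 members tested there. In visceral fat of the prenatal testosterone cohort it was 0.26 over 25 members. No median over all microRNAs is given beside these values. MIR493 had the smallest p of all microRNAs for the difference of the BPA effect between depots, 1.02 (SE 0.37, limma adjusted p = 0.8196). MIR323C, of the same cluster, had 1.24 (SE 0.63, adjusted p = 0.8196).

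**Figure D4:**
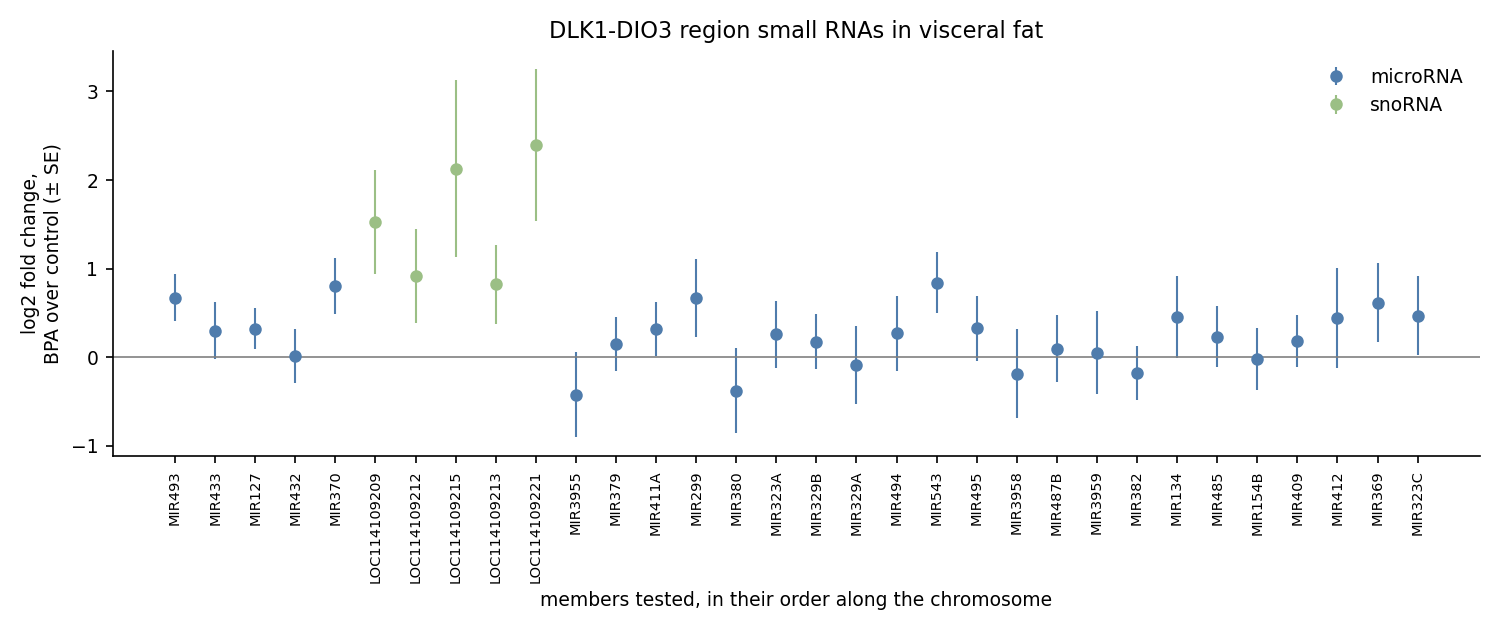
Log2 fold changes (BPA over control, y axis, with bars of 1 SE) of the 27 microRNAs and 5 snoRNAs of the DLK1-DIO3 region that were tested in visceral fat, placed in their order along the chromosome. Of the microRNAs 21 lie above 0, with MIR370 at 0.81 and MIR543 at 0.84. The 5 snoRNAs, 3 of which passed the filter only through their BPA mean, lie between 0.82 and 2.39. They were chosen after their values had been seen, so no conclusion is drawn from their shared direction.

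LOC105606646 is listed among the lncRNAs, while the annotation used here gives it a protein-coding biotype. It spans 33 snoRNAs in the table, of which 5 passed the filter on low values. This group was chosen after its values had been seen. None was called. LOC114109209, LOC114109212 and LOC114109221 passed only through their BPA mean, their control means being under 5, so that the filter itself favoured positive values, and no count or median over the 5 is used. The others were LOC114109213, with a log2 fold change of 0.82 (SE 0.44) that was 0.35 with the set term, and LOC114109215, with 2.13 (SE 0.995) that was 0.46 with the set term. LOC114109221 had 12.7, 1.57, 16.4 and 5.66 normalised reads in BPA, against 4.35, 0, 0 and 0 in control, and LOC114109209 had 13.6, 4.69, 18.5 and 9.44 in BPA, against 9.32, 1.33, 3.41 and 1.31 in control. In both genes the lowest BPA value was that of sheep 918 and the highest control value that of sheep 902, the libraries whose set differs from the rest of their group. LOC105606646 itself had 334.8, 481.7, 662.0 and 431.6 normalised reads in BPA, against 353.8, 284.7, 313.0 and 195.8 in control (log2 fold change 0.72, SE 0.32, limma adjusted p = 0.5014), and reads of the small RNAs within it may be counted in it. The effect of BPA on it in visceral minus subcutaneous fat was 1.31 (SE 0.52, adjusted p = 0.7112).

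The other lists of microRNAs held no called member and, MIR150 apart, none with an unadjusted p under 0.05. Members described as promoting adipocyte differentiation had positive log2 fold changes in 11 of 16 (median 0.14), and those described as restraining it in 6 of 10 (median 0.06). Without BPA sheep 910 these medians were -0.0007 and -0.14. The median was -0.07 over 13 microRNAs of insulin and glucose handling, 0.14 over 4 of inflammation, 0.14 over 6 tied to estrogen receptor signalling and 0.04 over 7 of the let-7 family. A single library turned each of these signs: without BPA sheep 910 the median was -0.05 for inflammation, -0.02 for estrogen receptor signalling and -0.15 for let-7, and without BPA sheep 918 it was 0.10 for insulin and glucose handling. These lists share members, let-7 among them. Lists of matrix and fibrosis and of the HOX clusters had negative medians. Of 8 matrix and fibrosis entries 7 had negative values (median -0.29, and -0.09 without control sheep 928), but MIR29B-1 and MIR29B-2 hold the same values in every library and 3 entries are the MIR200 markers. Both HOX microRNAs had negative values (median -0.39, and 0.35 within the later set). Medians were -0.06 over 4 microRNAs of proliferation clusters and -0.06 over 3 of the MIR23 and MIR27 clusters. All 3 epithelial and mesothelial markers had negative values (median -0.31, -0.08 with the set term and -0.07 without control sheep 928).

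Markers of striated muscle and of gut were low in level. The striated muscle marker of the MIR133 family made up 0.00693% to 0.0700% of microRNA reads in BPA and 0.00725% to 0.0389% in control visceral fat. The gut and liver marker of the MIR194 family made up 0.00813% to 0.0234% in BPA and 0.00627% to 0.0143% in control. Neither passed the exact permutation test (adjusted p = 0.8415 for each).

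No snoRNA of 182 was called by limma, edgeR or DESeq2, and 11 had an unadjusted p under 0.05 (6.04%), 8 higher (4.4%) and 3 lower (1.65%) in BPA. The excess of higher ones is not used, since the filter favoured it. LOC114109209, LOC114109221 and LOC114115098 among them passed the filter only through their BPA mean. With the set term 6 snoRNAs had an unadjusted limma p under 0.05. Between library sets 49 snoRNAs were called, 37 of them higher in the later set, which holds most BPA libraries. LOC114115090, in TNPO2, which encodes a nuclear import receptor, had 19.98, 6.26, 28.7 and 22.7 normalised reads in BPA, against 9.32, 3.98, 2.27 and 6.57 in control. LOC114115098, in PPAN, a gene of ribosome assembly, had 24.5, 4.69, 24.6 and 27.4 in BPA, against 13.0, 3.98, 1.14 and 1.31 in control. In both, BPA sheep 918 lay below control sheep 902. Their log2 fold changes were 1.599 (SE 0.52) and 2.06 (SE 0.70), with limma adjusted p = 0.4744 for each, and 0.90 and 0.94 with the set term. LOC114115098 passed the filter only through its BPA mean. LOC114117367, in RAB3GAP2, a regulator of membrane traffic, had 33.6, 43.8, 31.8 and 40.1 in BPA, against 40.4, 99.4, 110.1 and 97.3 in control. Control sheep 902, of the later set, lay within the BPA values, and the log2 fold change of -1.11 (SE 0.41, adjusted p = 0.4744) was -0.20 within the later set. The share of all snoRNAs was 0.914% to 1.63% in BPA and 1.02% to 2.55% in control.

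No lncRNA of 147 was called by limma. The groups did not overlap in 7 of them (4.76%, beside 2.75% of all 437 features), 5 higher (3.4%) and 2 lower (1.36%) in BPA. Of these, LOC114115657 and LOC114116624 passed the filter on low values through 1 group only. At an unadjusted p under 0.05 there were 10 (6.8%). LOC105602517 had 19.9, 14.3, 9.97 and 21.9 normalised reads in BPA, against 57.3, 46.4, 36.2 and 50.6 in control. The highest BPA value was well below the lowest control value. Its log2 fold change was -1.51 (SE 0.33, limma adjusted p = 0.1131), and it kept this size with the set term (-1.65), within the early set (-1.55) and within the later set (-1.75). DESeq2 on the recovered reads called it (adjusted p = 0.00545), and over all alternatives its adjusted p ranged from 0.00545 to 0.9836. In subcutaneous fat its log2 fold change was -0.61 and the difference between depots -0.90 (limma adjusted p = 0.7675), and in visceral fat of the prenatal testosterone cohort it was 0.70. The annotation used here holds no entry under this name.

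LOC114116624 was the other lncRNA with BPA below every control, with 6.64, 5.21, 1.25 and 4.59 normalised reads in BPA, against 10, 13.1, 14.1 and 10.7 in control (log2 fold change -1.38, SE 0.41, limma adjusted p = 0.3352). LOC114115657 had 12.3, 7.81, 9.97 and 4.59 in BPA, against 1.82, 2.02, 1.76 and 2.66 in control (1.596, SE 0.42, adjusted p = 0.2202). It neighbours the snoRNA LOC114115944, which lies in the transcription factor gene GTF2A1. LOC105610411, next to HERPUD2, a gene named for the stress response of the endoplasmic reticulum, had 14.2, 18.2, 18.7 and 19.4 in BPA, against 7.28, 12.1, 8.82 and 9.33 in control (0.85, SE 0.27, adjusted p = 0.3607). LOC114116066 had 21.8, 26.04, 27.4 and 19.4 in BPA, against 10.9, 18.2, 12.3 and 10.7 in control (0.83, SE 0.28, adjusted p = 0.4137). With the set term the log2 fold changes were -1.20 for LOC114116624, 1.61 for LOC114115657, 0.97 for LOC105610411 and 0.95 for LOC114116066 (limma adjusted p = 0.7248, 0.5617, 0.7248 and 0.7248). LOC114115657 passed the filter on low values only through its BPA mean and LOC114116624 only through its control mean. The filter itself favoured such differences, so neither the p-values nor the lack of overlap of these features is used as support.

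**Figure D5:**
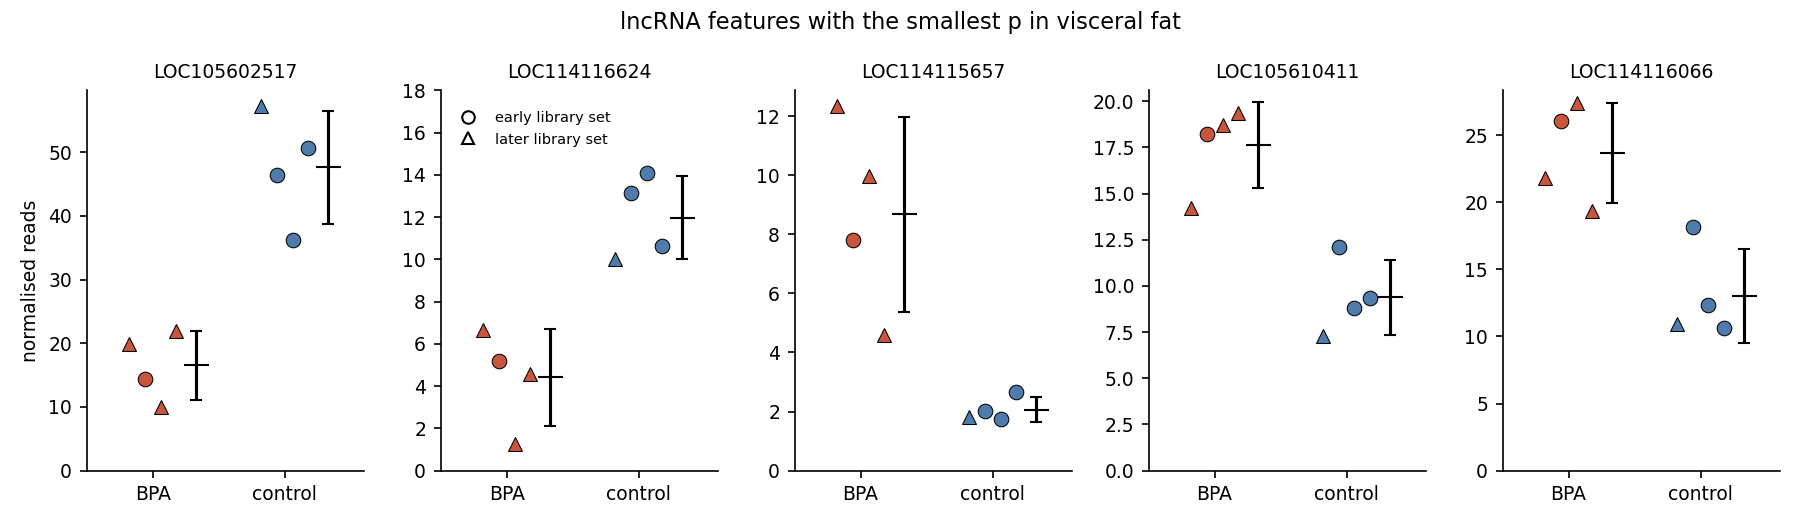
Normalised reads (y axis) of the 5 lncRNAs with the smallest p are shown for each visceral library, with BPA left of control, circles for the early and triangles for the later library set, and bars for the mean and SD of 4 sheep. The groups do not overlap in any of the 5, of which LOC114115657 and LOC114116624 passed the filter on low values through 1 group only. LOC105602517 lies between 9.97 and 21.9 in BPA and between 36.2 and 57.3 in control.

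Apart from the snRNA pair, limma without the block called no feature of 470 for a different effect of BPA in visceral and subcutaneous fat, and 15 had an unadjusted p under 0.05 (3.19%). LOC114109241, an snRNA, had 10.3, 6.38, 3.11 and 3.91 normalised reads in BPA visceral fat and 8.69, 3.66, 8.96 and 13.8 in control visceral fat. In subcutaneous fat it had 9.74, 113.3, 9.51 and 26.02 in BPA sheep and 7.23, 6.35, 8.22 and 9.81 in control sheep, where a single BPA library (sheep 918) stood far above the rest. Its difference between depots was -1.96 (SE 0.78, limma adjusted p = 0.1578). It passed under 4 of 19 alternatives, among them the replicate block with the set term (-2.18, adjusted p = 0.009633) and edgeR, with adjusted p between 0.009633 and 0.5509, and without sheep 918 it was -1.28. With the replicate block and set term 5 features were called in all, the other two being the snRNAs LOC114109164 and LOC114109197. MIRLET7B had a difference of -0.85 (SE 0.41, adjusted p = 0.8196). The snoRNAs LOC114118175, in the ribosomal protein gene RPL13A, and LOC114110195, in LUZP2, had -1.63 (SE 0.59) and -1.43 (SE 0.59), and LOC114109209 had 1.73 (SE 0.81), with adjusted p = 0.9872 for each. The lncRNAs LOC101122718 and LOC105611592 had 1.19 (SE 0.43) and -1.83 (SE 0.76), with adjusted p = 0.7112 for each. BPA in subcutaneous fat gave 0 calls among 477 features and prenatal testosterone in visceral fat 0 among 410, with 25 (5.24%) and 29 (7.07%) at an unadjusted limma p under 0.05.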

How the data were processed

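Total RNA of adipose tissue was made into small RNA libraries, per the labels' protocols. The submitters' processing notes name cutadapt 3.2, STAR 2.6.0c and featureCounts 1.6.1. Genome build and strand setting are not given in the sources used here. Each RNA class has 1 table of the BPA cohort, whose deposited signal is the number of reads of a feature over the library's size factor, as the authors scaled it. Whole reads were recovered from 100% of values (tolerance 1e-05), and size factors equalled median-of-ratios factors within depot and class.

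From these values, features with a mean of at least 5 over the 8 libraries were tested as log2(value + 1) in limma 3.58.1 (R 4.3.3), letting the spread follow the mean, 1 fit per class and Benjamini-Hochberg adjustment within the class. A fold change on this scale understates that of low features. Shares of reads were compared by an exact permutation test over 70 splits. The effect in both depots was compared by an interaction over 16 libraries. Libraries of both depots come from the same sheep, which pairs them by design. Deviations from group means had a median r of 0.18 within sheep (-0.286 to 0.451, over 0.1 in 5 of 8 sheep). Between sheep the median r was -0.02 (-0.661 to 0.599, over 0.1 in 17 of 56 pairs). edgeR 4.0.16 and DESeq2 1.42.0 were run on the recovered reads as alternatives. Other alternatives changed the pseudocount, filter, scaling, set term and libraries. Over the 12 pairs of libraries of a group the chi-square per degree of freedom was 12.4 to 165.5, so none was a repeat of another. The labels name separate sheep, so the replicates are sheep. However, limma pools the spread over the features of a class, near-copies of snRNAs among them. Its p-values thus rest only in part on the spread of a feature between sheep. Without letting the spread follow the mean, the limma adjusted p was 0.0229 for LOC114117093 and 0.02319 for LOC114117060. The interaction without the block treats the libraries of a sheep as independent. No intervals for counting error are given.

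Named are called features, the 10 microRNAs and 5 features of each other class with the smallest p, the 8 most abundant microRNAs, listed members with p under 0.05, markers, and the 3 features per class with the smallest interaction p. The lists and libraries were chosen with earlier results of these data known. Gene names and neighbours come from RefSeq, assembly ARS-UI_Ramb_v3.0, in which 76 of 76 microRNAs, 197 of 208 snoRNAs, 30 of 38 snRNAs and 76 of 164 lncRNAs matched. Coordinates and sequences are not used here.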

Additional observations from a re-analysis of the deposited data

Results flagged for a closer look

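The effect of BPA on the snRNA pair differed between depots by a test of the difference itself, at -1.87 for LOC114117093 and -1.73 for LOC114117060 on the log2 scale (visceral minus subcutaneous).

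In 13 of 100 checks of a group of 4 sheep, 1 sheep stood apart from the others by Dixon's criterion, which chance alone gives in about 1 in 20. The checks share libraries and related features, such as let-7 microRNAs, and are not independent. An excess over that rate can therefore not be read from the count. Among control visceral libraries, sheep 902, the later one, stood apart in MIR10B (932.0 normalised reads), MIR127 (5250.4), LOC114109221 (4.35), the snoRNA share of reads (2.55%) and the snRNA share of reads (0.702%). Among BPA visceral libraries, sheep 918, the early one, stood apart in LOC114115098 (4.69), MIR26A (18804.4) and the snoRNA share (0.914%). BPA sheep 910 stood apart in let-7 microRNAs, with 244066.5 for MIRLET7B, 154148.4 for MIRLET7A and 67389.4 for MIRLET7C. Control sheep 928 stood apart in MIRLET7A (89304.4) and MIR99A (39988.7). The part of library set in these values was not tested.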

How the results depend on the processing

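The count of 2 calls for BPA in visceral fat became 10 with CPM of the class, 4 with no filter on low values, 1 with adjustment over all 4 classes together, 0 with the set term, 0 within the early and 18 within the later set, and 0 with snRNAs rescaled without the pair, an alternative chosen after seeing the data. Without each library in turn it lay between 1 and 28, with 1 without control sheep 908 and 28 without BPA sheep 918. CPM moved the median of all features to -0.16 (class) and -0.21 (all classes). For the difference between depots, the sheep pair the libraries: the count stayed at 2 with the replicate block, and was 5 with the replicate block and set term and 8 with CPM of all classes. Leaving out sheep gave 2 to 3. The snRNA share differed by -0.0685 percentage points within the early and -0.52 within the later set, and by -0.25 to -0.12 without each library. Directions turned for MIR10B (0.10) and MIR127 (-0.31) within the later set, for LOC114117116 within the early set (-0.0074), and for LOC114110196 (-0.40), LOC114117116 (-0.50) and LOC114117117 (-0.50) with CPM of all classes. The causes were not tested. Of 37 named effects, 26 changed neither direction nor side of the threshold. Depth limits features near the filter, which rest on few reads.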
